A study of Mus musculus with 6 samples.

Results

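Elastic fibre and microfibril genes were examined in fibroblasts of the pubertal mouse mammary gland, in cells sorted by their surface CD34. The 10 genes were taken by name from the table of 27179 genes: *Eln*, the fibrillin genes *Fbn1* and *Fbn2*, the fibulin genes *Fbln1*, *Fbln2*, *Fbln5*, *Efemp1* and *Efemp2*, and the microfibril-associated genes *Mfap4* and *Mfap5*. Fibroblasts negative for lineage markers and CD24 and positive for Pdgfrα were sorted from the mammary glands of FVB/N mice (FVB/NJ in the study's methods) at 6 weeks of age. Each of 3 pools of 2 mice gave 1 CD34hi and 1 CD34lo library, 6 libraries altogether with 3 of each population. The labels name no treatment and no engineered allele for either group, and the animals of a pool cannot be separated. All 10 genes passed the filter on low counts.

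Elastic fibres are built from a core of crosslinked elastin that is laid down on a scaffold of microfibrils. Fibrillins polymerize into the microfibrils, small microfibril-associated glycoproteins bind to them, and fibulins bring elastin together with the scaffold and with lysyl oxidases, which crosslink it. Fibroblasts and smooth muscle cells make these proteins, which give skin, vessels and lung their recoil and which also hold latent TGF-β in the matrix.

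Total counts lay between 28764779 and 52402410 per library, and 3 counts, the least amount taken as detectable, were between 0.0553 and 0.108 CPM (TMM-scaled counts per 1e+06 of the library), a floor that covers counting error only. *Cd34* itself had 634 ± 158 CPM (SD, n = 3) in CD34lo and 2571 ± 75.3 CPM (SD, n = 3) in CD34hi fibroblasts. The fibroblast markers *Dcn*, *Lum*, *Pdgfra*, *Col1a2* and *Igfbp5* were detected in every library and summed to between 28386 and 36429 CPM. Of these, *Igfbp5* was higher in CD34hi, and *Lum*, *Pdgfra* and *Col1a2* were higher in CD34lo. Of 7 mural and smooth muscle markers, all 7 were higher in CD34lo (edgeR adjusted p under 0.05), against 18.7% of all tested genes. Their summed level was 137 to 197 CPM in CD34lo and 16.3 to 20.6 CPM in CD34hi libraries. None of these markers was at 0. The 3 endothelial markers summed to between 28.7 and 49.8 CPM in CD34lo and between 7.83 and 24.0 CPM in CD34hi, and the 2 keratinocyte markers to between 3.60 and 7.12 CPM and between 14.3 and 19.9 CPM. The 5 macrophage markers summed to between 27.3 and 48.6 CPM in CD34lo and between 2.57 and 3.20 CPM in CD34hi, and *Fcgr2b* alone had 36.0 and 0.518 CPM of this on average, whereas the leukocyte marker *Ptprc* was at 0.360 CPM or less. The 4 Schwann cell markers summed to between 20.8 and 26.8 CPM in CD34lo and between 42.1 and 52.1 CPM in CD34hi. Skeletal muscle and adipocyte markers summed to at most 3.88 and 1.81 CPM. The 5 epithelial markers summed to between 31.5 and 40.7 CPM in CD34lo and between 31.5 and 37.8 CPM in CD34hi. Only *Itga6* of these was called, with means of 6.22 CPM in CD34lo and 2.59 CPM in CD34hi (edgeR adjusted p = 0.00817).

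In the comparison of CD34hi with CD34lo fibroblasts, the elastic fibre and microfibril genes divided. *Fbn1*, *Efemp1*, *Mfap5* and *Fbln5* were 2.62 to 4.53 times higher in CD34hi, whereas *Mfap4*, *Fbn2* and *Fbln1* were 1.58 to 10.9 times higher in CD34lo fibroblasts. *Eln*, which encodes the elastic core itself, did not pass the test, and neither did *Efemp2* and *Fbln2*. Thus 7 of the 10 genes were called, against 35.6% of the 15219 genes tested. A gene was called where its edgeR adjusted p, which comes from the quasi-likelihood test after Benjamini-Hochberg correction across all tested genes, was under 0.05. With the mouse pool as a block the same 7 were called, against 40.5% of the genes. In the direction of CD34hi the background was 16.9% and in that of CD34lo 18.7%. The median log2 fold change (CD34hi minus CD34lo) of the 10 genes was 0.20 and that of all tested genes was -0.0064, whereas the medians of the absolute values were 1.44 and 0.40. In 8 of the 10 genes the CPM of the CD34lo and CD34hi libraries did not overlap, against 50.1% of the tested genes. CD34hi was the higher population in 5 of them (24.8% of the tested genes) and CD34lo in 3 (25.3%). In a bulk library, fewer cells that express a gene and less RNA per cell cannot be told apart.

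**Figure D1:**
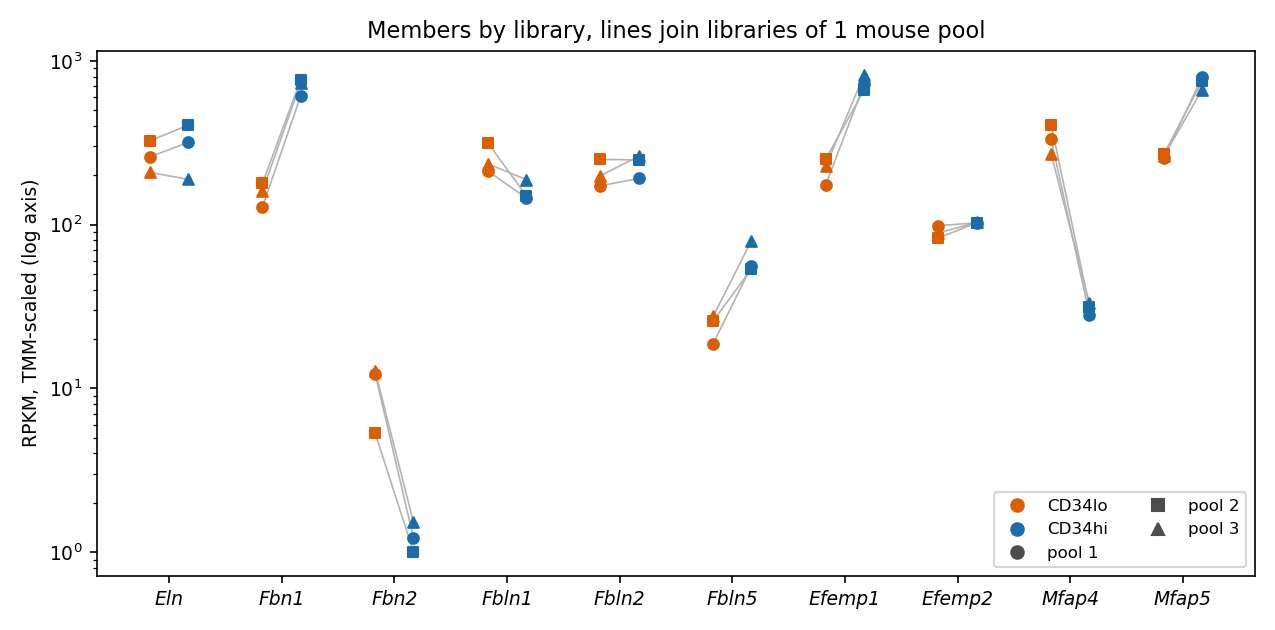
Level of each gene per length in each library (RPKM with TMM-scaled library sizes, log axis), with CD34lo libraries in orange and CD34hi libraries in blue; marker shapes give the mouse pool and lines join the libraries of 1 pool. *Fbn1*, *Efemp1*, *Mfap5* and *Fbln5* rise from CD34lo to CD34hi in every pool, and *Mfap4*, *Fbn2* and *Fbln1* go down in every pool.

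Sequence from RefSeq (GRCm38.p6) was at hand for the stretch before the listed start of 6 of the 10 genes. The 250 bases before the start are shown for *Efemp1* and *Fbln5*, which were both higher in CD34hi and whose windows held at most 1 base of an exon annotated in GENCODE vM21. The *Efemp1* window is chr11:28852955-28853204 on the plus strand and the *Fbln5* window chr12:101819120-101819369 on the minus strand, which lies before a listed start 64 bases outside the gene's end in the count table. Capitals mark GGGCGG (GC box), CCAAT and TGANTCA (a loose AP-1-like pattern with any base at N) in either orientation.
Efemp1: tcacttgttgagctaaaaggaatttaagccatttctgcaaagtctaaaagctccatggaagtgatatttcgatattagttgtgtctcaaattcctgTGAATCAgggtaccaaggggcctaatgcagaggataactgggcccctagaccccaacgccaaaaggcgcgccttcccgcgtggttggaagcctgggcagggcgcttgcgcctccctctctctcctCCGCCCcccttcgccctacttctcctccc
Fbln5: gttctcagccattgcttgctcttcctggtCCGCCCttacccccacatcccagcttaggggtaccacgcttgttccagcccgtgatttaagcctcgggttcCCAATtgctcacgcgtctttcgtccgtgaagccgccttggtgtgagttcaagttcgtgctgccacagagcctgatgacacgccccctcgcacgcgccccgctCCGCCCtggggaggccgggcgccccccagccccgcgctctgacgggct
A GC box was present in all 6 windows, once in *Fbn1*, *Fbln1*, *Fbln2* and *Efemp1*, 2 times in *Fbln5* and 5 times in *Efemp2*. It was present in 32.7% of the 32851 windows of the same length before all listed starts. The CCAAT match was in the *Fbln5* window and in 33.8% of all windows. The TGANTCA match was in the *Efemp1* window, as TGAATCA, and in 6.75% of all windows. TATAAA and GGAATG (TEAD) were in none of the 6 windows, and in 12.4% and 12.6% of all windows. The GC box was therefore found in windows of genes that were higher in CD34hi (*Fbn1*, *Efemp1*, *Fbln5*), higher in CD34lo (*Fbln1*) and not called (*Fbln2*, *Efemp2*) alike. However, the *Fbn1* and *Fbln2* windows lay wholly (250 bases) in exons annotated in GENCODE vM21 on either strand. The *Fbln1* and *Efemp2* windows held 59 and 16 such bases. These 4 windows are thus not purely sequence outside exons. These matches describe the letters only.

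*Eln* (gene 13717, chromosome 5, 134702596 to 134747254, GRCm38) encodes tropoelastin, the soluble precursor of elastin. It had 979, 1228 and 787 CPM in the CD34lo libraries of pools 1, 2 and 3, and 1201, 1528 and 715 CPM in the CD34hi libraries. The populations overlapped, and pool 2 was the highest and pool 3 the lowest in both. Its log2 fold change was 0.20 (SE 0.28, edgeR adjusted p = 0.611), and 0.16 with the pool as a block (edgeR adjusted p = 0.426). Within pools 1, 2 and 3 the difference was 0.30, 0.32 and -0.14. Without the CD34hi library of pool 2 the log2 fold change turned to -0.05 (edgeR adjusted p = 0.920). An opposite-strand gene annotated in GENCODE vM21 shares exonic bases with *Eln*, and another with *Fbn1*, and their reads cannot be told apart in these unstranded libraries.

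The fibrillin genes went in opposite directions. *Fbn1* (gene 14118, chromosome 2, 125300594 to 125506438) encodes fibrillin-1, the main microfibril protein of postnatal tissue. It had 1271, 1773 and 1587 CPM in CD34lo and 6075, 7599 and 7298 CPM in CD34hi libraries. All CD34hi libraries lay above all CD34lo libraries, and the log2 fold change was 2.18 (SE 0.19, edgeR adjusted p = 4.97e-05). *Fbn2* (gene 14119, chromosome 18, 58008623 to 58209926) encodes fibrillin-2, which is most prominent in developing microfibrils. It had 129, 55.7 and 134 CPM in CD34lo and 12.8, 10.5 and 15.9 CPM in CD34hi libraries, so that every CD34lo library was above every CD34hi library, and that of pool 2 was the lowest of the CD34lo libraries. Its log2 fold change was -3.02 (SE 0.33, edgeR adjusted p = 0.000167), and the difference was -3.33, -2.41 and -3.07 within pools 1, 2 and 3. Per length, *Fbn2* made up 8.73%, 2.88% and 7.37% of the summed fibrillin RPKM in the CD34lo libraries and 0.198%, 0.131% and 0.205% in the CD34hi libraries.

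Among the fibulin genes, *Efemp1* and *Fbln5* were higher in CD34hi and *Fbln1* was higher in CD34lo. *Efemp1* (gene 216616, chromosome 11, 28853205 to 28926743), also called fibulin-3, encodes a matrix protein of connective tissue and of the eye. It had 357, 512 and 462 CPM in CD34lo and 1464, 1354 and 1678 CPM in CD34hi libraries, with no overlap and a log2 fold change of 1.76 (SE 0.17, edgeR adjusted p = 0.000102). *Fbln5* (gene 23876, chromosome 12, 101746565 to 101819055) encodes fibulin-5, which binds tropoelastin and integrins and is needed for the assembly of elastic fibres. It had 109, 150 and 161 CPM in CD34lo and 324, 312 and 464 CPM in CD34hi libraries. The CD34hi library of pool 3 was the highest, the populations did not overlap, and the log2 fold change was 1.39 (SE 0.20, edgeR adjusted p = 0.000905).

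*Fbln1* (gene 14114, chromosome 15, 85206008 to 85286294) encodes fibulin-1, which is found in elastic fibres and in basement membranes. It had 714, 1062 and 789 CPM in CD34lo and 489, 505 and 633 CPM in CD34hi libraries. The populations did not overlap, but the highest CD34hi library (633 CPM) and the lowest CD34lo library (714 CPM) were close. Its log2 fold change was -0.66 (SE 0.19, edgeR adjusted p = 0.0232), and -0.64 with the pool as a block (edgeR adjusted p = 0.0110). Within pools 1, 2 and 3 it was -0.55, -1.07 and -0.32. The call was lost without pool 1 (adjusted p = 0.0817), without pool 2 (0.200), without the CD34hi library of pool 1 (0.0965) or of pool 2 (0.0959) and without the CD34lo library of pool 2 (0.0532), all from edgeR, and without pool 2 the log2 fold change was -0.42.

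The remaining fibulin genes did not pass the test. *Efemp2* (gene 58859, chromosome 19, 5474690 to 5481854), also called fibulin-4, encodes a protein that brings lysyl oxidase to tropoelastin. It had 181, 153 and 164 CPM in CD34lo and 189, 189 and 190 CPM in CD34hi libraries, and although these values did not overlap, the log2 fold change of 0.19 (SE 0.11) did not pass (edgeR adjusted p = 0.225). *Fbln2* (gene 14115, chromosome 6, 91212764 to 91272540) encodes fibulin-2, a partner of fibrillins, elastin and basement membrane proteins. It had 772, 1121 and 890 CPM in CD34lo and 858, 1111 and 1170 CPM in CD34hi libraries, which overlapped. Its log2 fold change was 0.17 (SE 0.19, edgeR adjusted p = 0.507).

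The microfibril-associated genes also went in opposite directions. *Mfap4* (gene 76293, chromosome 11, 61485444 to 61488704) encodes a fibrinogen-domain protein that binds elastin, fibrillin and collagen and is abundant in elastic vessels. It had 502, 616 and 409 CPM in CD34lo and 42.6, 47.5 and 49.9 CPM in CD34hi libraries. The populations were far apart, and the log2 fold change of -3.45 (SE 0.18, edgeR adjusted p = 4.80e-06) was the largest in size among the 10 genes. The mural and smooth muscle markers, and at lower levels the endothelial and macrophage lists, moved the same way as *Mfap4*, *Fbn2* and *Fbln1*. The leading mural and smooth muscle markers *Myh11*, *Acta2*, *Tagln* and *Notch3* had 34.7, 33.3, 36.8 and 43.1 CPM in CD34lo and 2.37, 3.24, 6.39 and 4.44 CPM in CD34hi fibroblasts (means of 3 libraries). Among the fibroblast markers, *Lum*, *Pdgfra* and *Col1a2* also moved this way, with log2 fold changes of -1.28, -0.74 and -0.69. *Igfbp5* went the other way, at 3.45, and *Dcn*, at -0.34, was not called. The part of all these markers in the differences was not tested.

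*Mfap5* (gene 50530, chromosome 6, 122513676 to 122529290) encodes a small microfibril-associated glycoprotein that binds fibrillins. It had 359, 380 and 370 CPM in CD34lo and 1122, 1065 and 941 CPM in CD34hi libraries. The CD34lo libraries were close together and lay below all CD34hi libraries. The log2 fold change was 1.5 (SE 0.13, edgeR adjusted p = 4.98e-05), with 1.65, 1.49 and 1.35 within pools 1, 2 and 3.

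**Figure D2:**
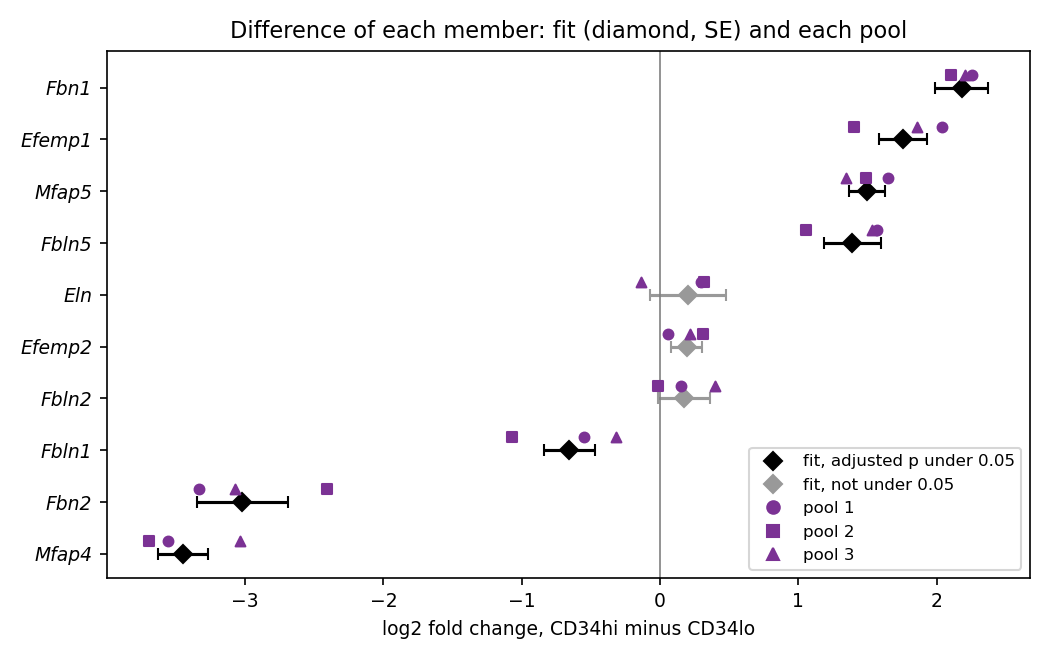
Log2 fold change of each gene, CD34hi minus CD34lo, on the horizontal axis. Diamonds with bars are the edgeR estimates with their standard errors, black where the adjusted p-value was under 0.05 and grey otherwise, and purple markers are the differences within each of the 3 mouse pools, which lie on 1 side of 0 for all genes but *Eln* and *Fbln2*.

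On the scale of RPKM (CPM divided by the gene length in kilobases), the order of the genes differed between the populations. In CD34hi fibroblasts *Mfap5* (738 ± 65.5, SD, n = 3), *Efemp1* (736 ± 80.7) and *Fbn1* (706 ± 81.5) were highest, and each overlapped its neighbour. *Eln* (304 ± 108) and *Fbln2* (234 ± 37.1) followed and overlapped, and below them *Fbln1*, *Efemp2*, *Fbln5*, *Mfap4* and *Fbn2*, at 161, 103, 62.9, 30.9 and 1.25 RPKM, were each apart from their neighbours. In CD34lo fibroblasts *Mfap4* was highest, at 336 ± 68.7 RPKM (SD, n = 3). The neighbours in the order *Mfap4*, *Eln* (264), *Mfap5* (261), *Fbln1* (255), *Efemp1* (218), *Fbln2* (207) and *Fbn1* (156) overlapped, whereas *Efemp2* (90.1), *Fbln5* (24.0) and *Fbn2* (10.1) were each apart from the gene above. Among all genes of the table ranked by mean RPKM, *Mfap4* was at rank 168 in CD34lo and 1867 in CD34hi, and *Fbn1* was at rank 362 in CD34lo and 84 in CD34hi.

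Summed, the 10 genes took between 0.556% and 0.681% of all counts of a CD34lo library and between 1.16% and 1.35% of those of a CD34hi library. These shares are not scaled by length and lean on *Fbn1*, which had the most counts of the 10 in every library. It had 68893, 49293 and 49378 counts in CD34lo and 271698, 275370 and 330951 counts in CD34hi libraries. Per length, the summed RPKM was between 1663 and 2111 in CD34lo and between 2969 and 3178 in CD34hi libraries. Of their summed RPKM, *Fbn1*, *Efemp1* and *Mfap5* made up 22.9%, 24.0% and 24.0% in CD34hi and 8.56%, 12% and 14.5% in CD34lo fibroblasts. *Mfap4* made up 18.4% of it in CD34lo and 1.00% in CD34hi. The share of *Eln* was 14.4% ± 1.83 in CD34lo and 9.85% ± 3.37 in CD34hi (SD, n = 3), and the libraries overlapped.

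Ratios between genes within 1 library do not depend on the scaling of libraries. The *Fbn2* to *Fbn1* ratio per length was -4.04 ± 0.91 on the log2 scale in CD34lo and -9.16 ± 0.36 in CD34hi (SD, n = 3), a difference of -5.12 (SE 0.56). The difference was -5.62 for *Mfap4* to *Fbn1* (SE 0.19), 1.57 for *Efemp1* to *Efemp2* (SE 0.24), 1.41 for *Mfap5* to *Mfap2* (SE 0.16), 1.19 for *Fbln5* to *Efemp2* (SE 0.30) and 0.82 for *Fbln2* to *Fbln1* (SE 0.10). In each of these 6 ratios the populations did not overlap, which for *Fbn2* to *Fbn1* and *Mfap4* to *Fbn1* follows from the genes' opposite differences. The exact two-sided permutation test gave p = 0.1 for each (adjusted p = 0.1 over the 6 ratios), the smallest that 3 libraries against 3 can give. Neither this test nor the SEs of the ratios used the pairing of libraries by pool. The *Fbln2* to *Fbln1* ratio changed its sign, with *Fbln1* the higher of the pair in every CD34lo library and *Fbln2* the higher in every CD34hi library.

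**Figure D3:**
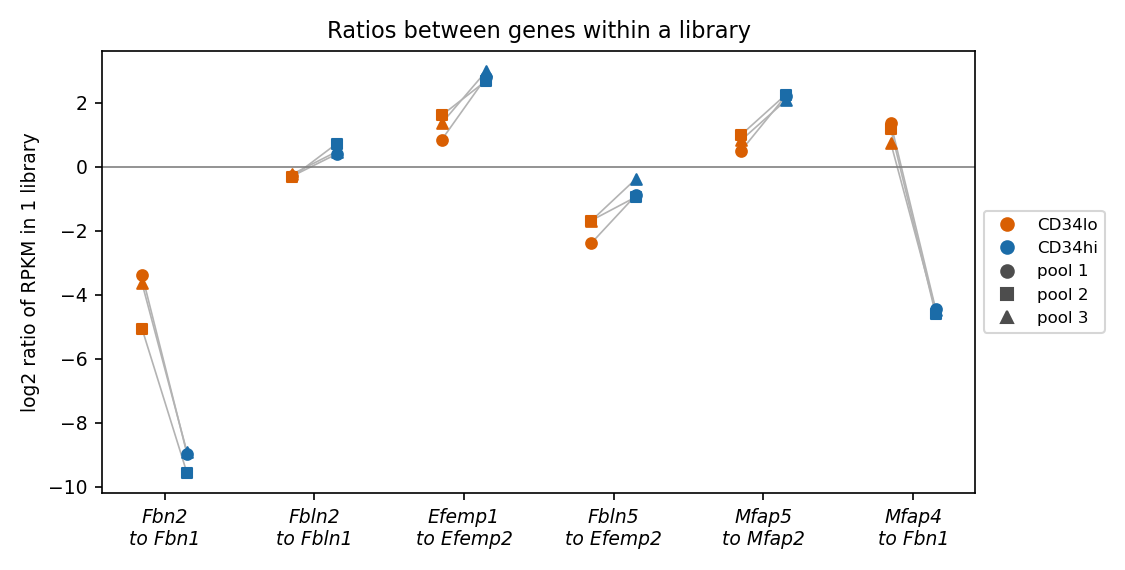
Log2 ratio of the RPKM of a gene to that of another in the same library, with CD34lo in orange and CD34hi in blue, marker shapes for the mouse pool and lines between libraries of 1 pool. The *Fbn2* to *Fbn1* ratio goes from -4.04 to -9.16 and the *Mfap4* to *Fbn1* ratio from 1.10 to -4.51 (means of 3 libraries).

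Of 15 genes for partners of microfibrils, all tested, 5 were higher in CD34hi (against 16.9% of all tested genes), 5 were higher in CD34lo (against 18.7%) and 5 did not pass. Their median log2 fold change was -0.13. *Adamtsl4*, whose protein binds fibrillin-1, rose from 44.2 ± 12.7 CPM in CD34lo to 364 ± 26.4 CPM in CD34hi (SD, n = 3), a log2 fold change of 3.04 (edgeR adjusted p = 1.46e-05). *Emilin2* and *Ltbp1*, which encode an elastin microfibril interfacer and a latent TGF-β binding protein, had log2 fold changes of 2.33 and 1.69. On the other side, *Adamtsl2*, *Emilin3* and *Adamts17* had log2 fold changes of -4.25, -4.06 and -3.31, at low levels of 30.3, 7.69 and 10.8 CPM in CD34lo fibroblasts. *Emilin1* was also higher in CD34lo, opposite to *Emilin2*, and at a higher level of 201 ± 57.3 against 74.8 ± 13.5 CPM (SD, n = 3). Its log2 fold change was -1.43 (edgeR adjusted p = 0.00142). *Mfap2*, the near relative of *Mfap5*, had 176 ± 26.4 CPM in CD34lo and 185 ± 8.27 CPM in CD34hi, and *Ltbp4*, whose protein guides elastin assembly, had 1364 ± 452 and 1246 ± 165 CPM. Neither passed, and the log2 fold changes were 0.07 and -0.13 (edgeR adjusted p = 0.719 and 0.701).

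The calls of *Thsd4* and *Adamts10* were lost when libraries were left out. *Thsd4*, at a log2 fold change of 0.62 (edgeR adjusted p = 0.0205), was not called without pool 1 or 2, the CD34hi library of pool 2 or the CD34lo library of pool 1 or 2, with adjusted p-values between 0.0515 and 0.203, and its log2 fold change over 17 alternatives was at least 0.36. *Adamts10*, at -0.73, was not called without pool 1 (adjusted p = 0.0519) or pool 2 (adjusted p = 0.0673). *Adamts6*, at 0.61, was called with the pool as a block (adjusted p = 0.0326) but not without it (adjusted p = 0.257, all from edgeR).

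Of the 5 genes for lysyl oxidases, the crosslinking enzymes, 4 were higher in CD34hi, against 16.9% of all tested genes. These were *Loxl1*, *Loxl2*, *Loxl3* and *Loxl4*, with log2 fold changes of 1.08, 0.53, 0.36 and 1.40. *Loxl1*, whose product crosslinks elastin at fibulin-5, had 700, 613 and 699 CPM in CD34lo and 1386, 1488 and 1389 CPM in CD34hi libraries (edgeR adjusted p = 0.000310), with no overlap. *Lox*, the founding member of the family, pointed the other way, with 337, 525 and 443 CPM in CD34lo and 188, 293 and 386 CPM in CD34hi libraries. It was lower in CD34hi in every pool but overlapped between populations, and its log2 fold change of -0.59 did not pass (adjusted p = 0.114), whereas with the pool as a block it did, at -0.63 (adjusted p = 0.0102, both from edgeR). It was also called without the CD34hi library of pool 3 (edgeR adjusted p = 0.0320). *Loxl2* was not called without pool 1, pool 2 or the CD34hi library of pool 2, with edgeR adjusted p of 0.0981, 0.0905 and 0.0635, and *Loxl3* was called in only 1 of 9 fits with a pool or library omitted, the one without the CD34hi library of pool 1 (edgeR). It was not called with upper-quartile normalization either (edgeR adjusted p = 0.0745), and 2 to 4 of the 5 genes were called across the 9 fits.

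The 3 other fibulin-type genes were all higher in CD34lo, against 18.7% of all tested genes. *Fbln7* had 138, 178 and 132 CPM in CD34lo and 13.7, 12.2 and 15 CPM in CD34hi libraries, a log2 fold change of -3.45 (edgeR adjusted p = 2.54e-06). The hemicentin genes *Hmcn1* and *Hmcn2*, which encode very large matrix proteins with a fibulin-type end, had log2 fold changes of -2.84 and -3.00. All 3 were called in each of the 17 alternatives.

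Of 8 integrin subunits that take part in binding matrix proteins with an RGD motif, 2 were higher in CD34hi and 2 in CD34lo, against 16.9% and 18.7% of all tested genes, so that the counts stood near the background. *Itgb3* had 70.9 ± 12.1 CPM in CD34lo and 141 ± 20.0 CPM in CD34hi (SD, n = 3), a log2 fold change of 1.00, and *Itga8* had 78.1 ± 11.2 and 5.29 ± 0.767 CPM, a log2 fold change of -3.88. *Itgb8* was higher in CD34lo, at 4.48 ± 1.12 CPM against 0.437 ± 0.146 CPM, and *Itgb6* was higher in CD34hi at a very low level, with 1.52, 1.79 and 1.81 CPM in CD34hi and 0.184, 0 and 0.0643 CPM in CD34lo libraries. The widely used subunits *Itgav*, *Itgb1*, *Itga5* and *Itgb5* did not pass, and their log2 fold changes were -0.24, -0.09, 0.12 and 0.35. With the pool as a block, *Itgb5* passed (edgeR adjusted p = 0.0409, against 0.0518 without). Its call changed in 4 of 17 alternatives, among them limma-voom and DESeq2 without a block. *Itgav* was called without the CD34lo library of pool 2 (edgeR adjusted p = 0.0188).

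Among 7 proteases able to degrade elastin, only *Mmp2* and *Ctsk* had enough counts to be tested. *Mmp2* had 2690 ± 421 CPM in CD34lo and 3105 ± 253 CPM in CD34hi (SD, n = 3), and its log2 fold change of 0.21 did not pass (edgeR adjusted p = 0.370). *Ctsk*, a cathepsin, was higher in CD34lo, at 636 ± 73.5 against 460 ± 20.2 CPM, with a log2 fold change of -0.47 (edgeR adjusted p = 0.0254). This call was lost without pool 1 or 2 or any 1 of their 4 libraries, with adjusted p-values between 0.0586 and 0.223. *Mmp9*, *Mmp12*, *Ctss* and *Elane* had 53, 23, 23 and 6 counts over all libraries. *Mmp12* passed the filter and was called as higher in CD34lo without pool 2 (edgeR adjusted p = 0.0377) and without the CD34lo library of pool 2 (edgeR adjusted p = 0.0169). *Mmp7* had 0 counts, which allows up to 0.108 CPM in the library with the lowest scaled total.

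**Figure D4:**
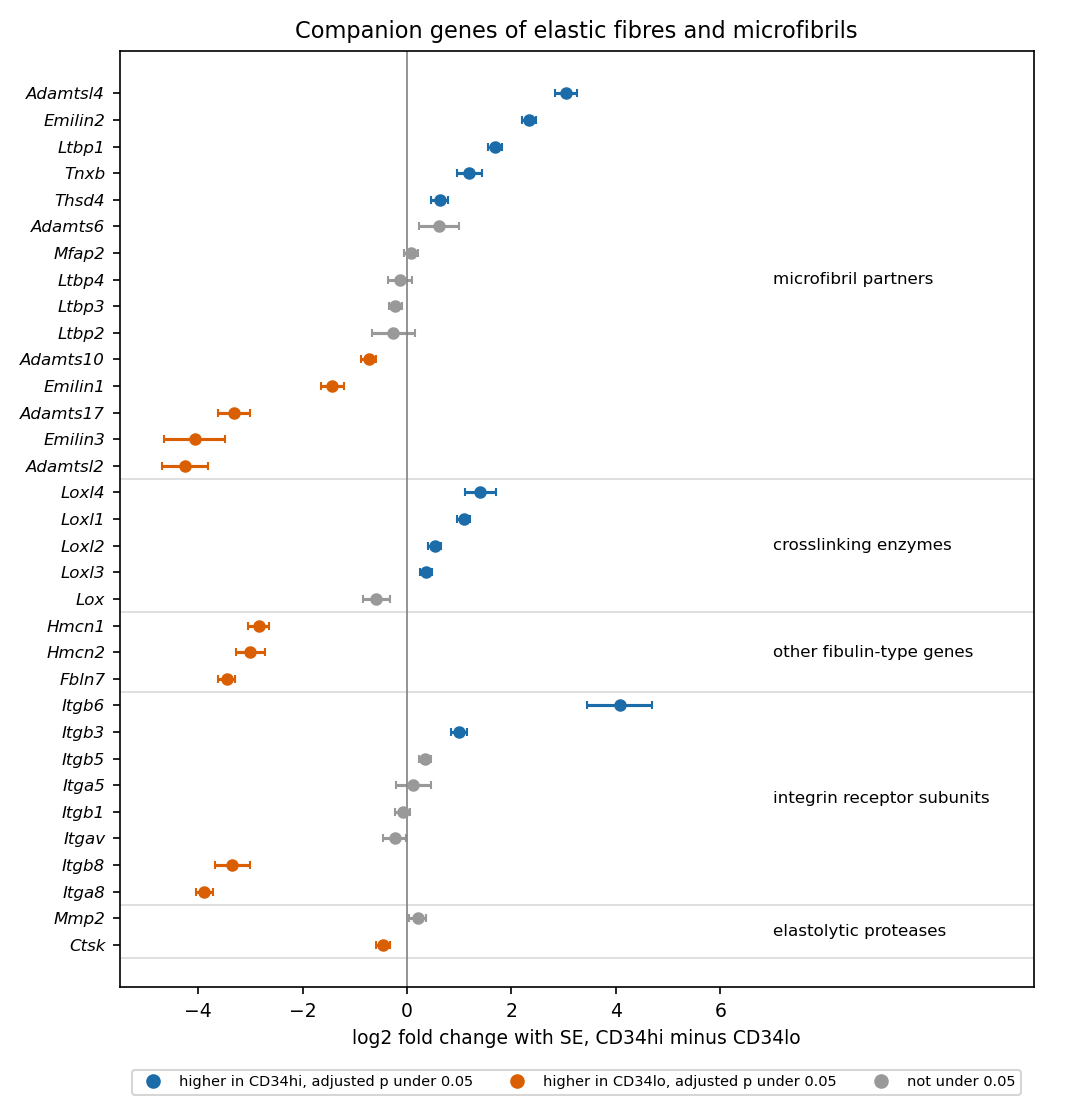
Log2 fold change, CD34hi minus CD34lo, with its standard error for the 33 tested of 38 companion genes, grouped by role. Blue points were higher in CD34hi and orange points higher in CD34lo at an adjusted p-value under 0.05, and grey points did not pass. Of the 33 genes, 11 were called in each direction, against 16.9% (CD34hi) and 18.7% (CD34lo) of all tested genes. The size of the *Itgb6* value rests on very few counts in CD34lo.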

How the data were processed

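RNA of the sorted cells was made into TruSeq RNA v2 libraries, which do not mark strand. According to the study's methods, the authors used Rsubread to align reads to mouse build GRCm38/mm10 and to assign them to genes. The annotation, the strand setting and the handling of multimapping reads are not given in the sources used here. The deposited table holds raw read counts for each gene, neither normalized nor filtered, and the deposited gene length in bases was used for RPKM. Symbols came from a RefSeq table (GRCm38.p6), in which 25275 of 27179 identifiers had one.

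Testing was done in edgeR 4.0.16 (R 4.3.3). After filterByExpr by population, which kept 15219 genes, and TMM normalization, the quasi-likelihood test compared the populations without a term for the mouse pool. The p-values were corrected by the Benjamini-Hochberg method across all kept genes (threshold 0.05). The SE of a log2 fold change is its size over the root of F. Alternatives were limma-voom (limma 3.58.1), DESeq2 1.42.0, normalization by upper quartile or RLE, no filter, at least 10 counts in every library, the mouse pool as a replicate block, and each pool and library left out. Both libraries of a number came from the same mouse pool, and across genes their deviations from the population means correlated at Pearson's r = 0.279, 0.0844 and 0.243 in pools 1, 2 and 3. Replicates differed beyond sampling noise (chi-square of at least 22.3 per degree of freedom).

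All 10 genes are described, and called companion genes are named by the size of their change, up to 3 per direction and list, and uncalled ones singly as values. *Thsd4*, *Adamts10*, *Emilin1* and *Loxl3* fall outside this rule and were chosen after their values were seen. Marker genes are named only as checks. The members and lists were chosen with earlier results of these data known. No gene of the count table overlaps the 10 genes, but in GENCODE vM21 the opposite-strand genes *Gm30003* and *Gm9913* share exonic bases with *Eln* and *Fbn1*, and reads of these cannot be told apart.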

Additional observations from a re-analysis of the deposited data

How the results depend on the processing

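The number of all genes that differed was 5411, and it was 3468 without replicate 1 and between 3468 and 5236 when single pools or libraries were omitted. Of 170 comparisons of the 10 genes over 17 alternatives, 164 had the same direction and the same call. The exceptions were *Fbln1*, no longer called in 5 fits with a pool or library omitted, and *Eln*, which turned to -0.050 without CD34hi replicate 2 (edgeR adjusted p = 0.920; range when pools or libraries were omitted, -0.050 to 0.46). The number of members higher in CD34hi was 4 in all 17 alternatives, and that of members higher in CD34lo was 2 or 3. The median log2 fold change of the 10 genes was 0.20, 0.14 with upper-quartile normalization, which moved the median of all genes from -0.0064 to -0.059, and between 0.17 and 0.35 with a pool or library omitted. The number of called crosslinking enzymes was 4 and ranged from 2 to 4 with a pool or library omitted, and that of called elastolytic proteases was 1 and ranged from 0 to 1, where the 1 was *Mmp12* and not *Ctsk* without replicate 2 and without CD34lo replicate 2. With the replicate block, 6161 genes differed, and the call changed for *Lox*, *Itgb5* and *Adamts6* but for none of the 10 genes, whose log2 fold changes under the block lay between -3.43 and 2.19. Without any 1 pool, the *Fbn2* to *Fbn1* difference lay between -5.43 and -4.89 and the *Fbln2* to *Fbln1* difference between 0.71 and 0.89, and the other 4 ratios kept their direction. Leaving out the division by length cannot move these differences, since the lengths cancel. Of 560 comparisons of companion genes, 35 changed a call, in 9 of the 33 genes tested with all libraries. The cause of these changes was not tested. *Itgb6* gave no value with at least 10 counts in every library. The lowest count of the 10 genes in any library was 381, for *Fbn2*.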
